A study of Mus musculus with 3 samples.

Results

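The enzymes that make, spend and restore glutathione and thioredoxin, together with the enzymes that remove superoxide and hydrogen peroxide, were followed through heart RNA of sham, AAC and AAC + DAPA mice. The 52 genes were taken by a rule on their symbols, and earlier results of these data were known when the list was chosen. The list holds the numbered members of the Gst, Mgst, Gpx, Prdx, Sod and Txnrd families, and 10 further genes (Txn1, Txn2, Gclc, Gclm, Gsr, Gss, Nqo1, Hmox1, Srxn1 and Cat). Its genes are 52 of 19505 that the array names, each read by 1 probe.

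Glutathione is a small peptide with a reactive thiol. It is built by glutamate-cysteine ligase (Gclc and Gclm) and glutathione synthetase (Gss), used by glutathione peroxidases to reduce peroxides and by glutathione S-transferases (GSTs) to tag reactive compounds, and returned to its reduced form by glutathione reductase (Gsr). The thioredoxin branch works in parallel, with peroxiredoxins as the peroxide scavengers and thioredoxin reductases as the enzymes that draw on NADPH. In heart muscle, where mitochondria are dense, superoxide dismutases turn superoxide into hydrogen peroxide, and many genes of these pathways are induced by the transcription factor NRF2 (Nfe2l2) through a promoter sequence called the antioxidant response element.

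All 3 arrays carried heart RNA of wild-type C57BL/6 mice, labelled male, with 10 weeks as the age the labels give for surgery. The paper gives a younger age. AAC, abdominal aortic constriction, is a silk tie on the abdominal aorta that puts the left ventricle under pressure. Sham mice, whose array is labelled as the control group, had the operation without a lasting constriction. AAC + DAPA mice carried the tie and then drank dapagliflozin, a blocker of the kidney glucose transporter SGLT2, at 25 mg/kg per day over 12 weeks, while sham and AAC mice received saline. Each group is 1 array, and no source used here says whether its RNA came from 1 mouse or from a pool. There is thus no replicate error, no test and no p-value for any value below, and the spread between animals is unknown. In heart RNA, fewer cells of a type and less RNA per cell cannot be told apart.

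The arrays had medians of 5.23 to 5.30 (log2) over 22206 probes. Heart muscle markers were present on all of them, with a summed level over 12 genes of 22.12 to 22.18 (log2). The AAC array went against its companions in Y-linked genes: 24 of 32 were at least 1.5-fold higher there than on both other arrays, with log2 levels of Eif2s3y of 2.50, 11.71 and 2.72 on the sham, AAC and AAC + DAPA arrays, although every sample is labelled male. Sex and condition therefore cannot be told apart in a comparison with the AAC array, and AAC + DAPA against sham is the 1 comparison that leaves it out. The summed macrophage and monocyte markers were also highest there, 11 of 15 being at least 1.5-fold above sham and 11 at least 1.5-fold above AAC + DAPA, with a summed log2 level of 12.82, 14.06 and 12.84 in the same order. Of 7 red blood cell markers, Alas2 (7.63, 11.92 and 8.63 in the same order) and Slc4a1 (7.54, 8.92 and 7.99) were higher on the AAC array than on the sham array. Rhd (4.89, 4.44 and 4.72) was lower there, 4 lay under the 25th percentile on all arrays, and the summed level was 8.82, 12.11 and 9.48. Of 9 neutrophil markers, S100a9 (4.80, 6.68 and 5.01) and Retnlg (3.57, 5.77 and 4.24) were highest there too, 4 lay under the 25th percentile on all arrays, and the summed level was 7.01, 7.97 and 7.15. Of 10 fibroblast markers, 7 lay below sham on the AAC array, Col3a1 (10.25, 9.14 and 8.62) and Lum (13.57, 12.68 and 12.84) by 1.5-fold or more, while the summed level was 18.02, 18.18 and 18.10. Of 9 smooth muscle and pericyte markers, Acta2 (15.25, 10.08 and 12.13) was lower and Myh11 (4.65, 5.56 and 5.28) and Rgs5 (14.34, 15.08 and 14.84) were higher there, with a summed level of 16.36, 15.96 and 15.72. The part of these cell types in the values below was not tested.

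Where 3 values of a gene follow each other, they are log2 levels in the order sham, AAC, AAC + DAPA. A gene was counted as past the threshold when a pair of arrays stood 1.5-fold or more apart, which is 0.585 on the log2 scale. For genes read by several probes, the difference between arrays varied between probes of the same gene with an SD of 0.31 (AAC against sham), 0.26 (AAC + DAPA against AAC) and 0.19 (AAC + DAPA against sham) over 55 genes. This is a spread between probes and not between animals. None of the 55 genes is a member, since each member has 1 probe.

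Of the 52 antioxidant genes, 15 passed 1.5-fold in at least 1 comparison and 37 in none. The 15 are 28.8% of the members, against 15.3% of all genes, and 33.3% of the 45 members above the median level, against 21.6% of all genes above it. Compared with the sham array, 7 were higher on the AAC array: the peroxidase Gpx1, the transferases Gstz1, Gstt2, Gstt1, Gsto1 and Gsta3, and the quinone reductase Nqo1. In the same comparison 4 were lower: the secreted peroxidase Gpx3, Gss, Gpx8 and Prdx1. The 7 higher genes are 13.5% of the members, where 4.88% of all genes were called higher, and the 4 lower genes are 7.69%, where 4.98% of all genes were called lower. The background was higher among genes above the median level. There, 7 of 45 members (15.6%) were higher against 6.65% of all such genes, and 4 of 45 (8.89%) were lower against 8.19%, so the share that was lower was close to the background.

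On the AAC + DAPA array 4 members were higher than on the AAC array (Gpx3, Gss, Gstt2 and Gpx8) and 4 were lower (Mgst1, Gstz1, Gpx1 and Gclm). Each count is 7.69% of the members, against 4.16% of all genes called higher and 4.18% called lower. Above the median level the share was 8.89% of members in each direction, against 5.85% and 4.96%. Compared with sham, AAC + DAPA had 3 higher members (Gstt2, Gsto1 and Gstt1) and 3 lower members (Mgst1, Txnrd1 and Gpx7), 5.77% each, against 3.22% and 3.38% of all genes. Above the median level these were 6.67% of members each, against 4.82% and 5.03%. The median difference over the 52 genes was 0 in every comparison, as it was over all genes, with 20 members above and 21 below sham on the AAC array and 25 above and 17 below AAC on the AAC + DAPA array.

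**Figure D1:**
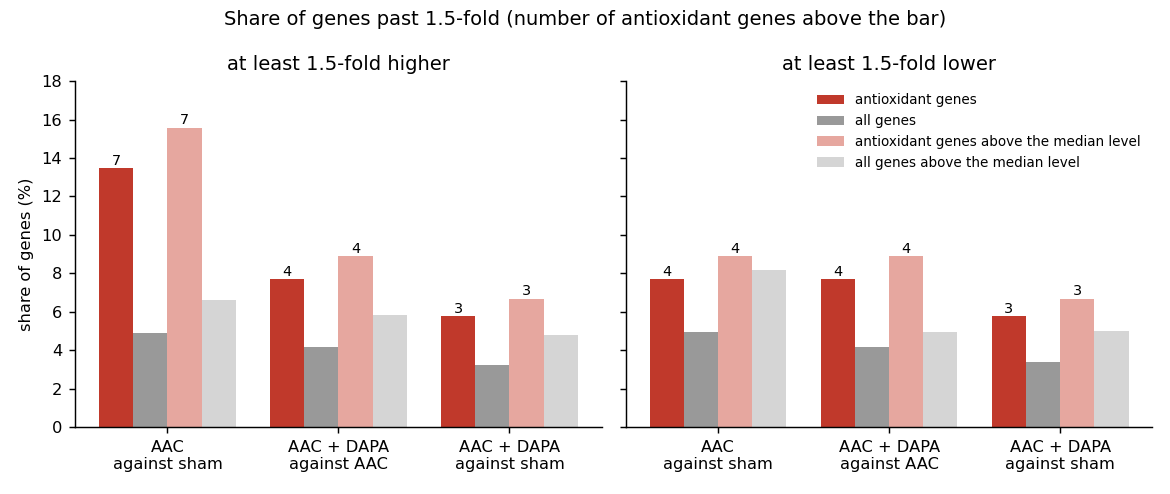
Share of genes at least 1.5-fold higher (left) or lower (right) in each comparison, in percent, for the 52 antioxidant genes and for all 19505 genes, and for the 45 and 9751 of them above the median level. The number over a bar is the count of antioxidant genes, and the 7 genes higher in AAC than in sham show the widest gaps to the background (13.5% against 4.88%, and 15.6% against 6.65% above the median level).

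The glutathione peroxidases held the widest opposite differences between AAC and sham. Gpx1, the abundant selenium-containing peroxidase of cytosol and mitochondria, stood at 10.99, 12.19 and 11.49 (log2). The AAC array was the highest of them, 2.30-fold above sham and 1.62-fold above AAC + DAPA. Differences in the same direction as that from sham were at least as large for 187 of all genes, Gpx1 included. Gpx1 is also a major protein of red blood cells. Of their markers, Alas2 and Slc4a1 were highest and Rhd was lowest on the same array, and the part of these cells in the result was not tested.

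Gpx3, the peroxidase secreted into plasma, had the opposite pattern, with 15.57, 14.45 and 15.52. The AAC array was the low one, 2.17-fold under sham and 2.10-fold under AAC + DAPA, while sham and AAC + DAPA lay 0.05 (log2) apart. Fat cells are a known source of Gpx3. The summed level of 11 adipocyte markers was 17.81, 17.80 and 17.81, a sum made almost wholly by Fabp4, and 5 of the 11 lay under the 25th percentile on all arrays, the defining markers Adipoq (3.33, 2.89 and 3.33) and Plin1 among them. Of the 11, 7 lay below sham on the AAC array, 1 above and 3 level with it. Only Cidea (9.66, 8.82 and 9.75) was lower by 1.5-fold or more. On the AAC + DAPA array 6 lay above AAC and 3 below, 2 of the 6 by 1.5-fold or more. The part of fat cells in the Gpx3 values was not tested. Gpx8, an enzyme of the endoplasmic reticulum membrane, followed the order of Gpx3 at 9.65, 8.98 and 9.58, with AAC 1.59-fold under sham and AAC + DAPA 1.52-fold over AAC. The latter lies just inside the threshold and just outside it after quantile normalization (0.58).

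The other peroxidases differed less. Gpx7, of the endoplasmic reticulum lumen, had its lowest value on the AAC + DAPA array (6.05, 5.96 and 5.46), 1.51-fold under sham and within 1.5-fold of AAC. It no longer passed with the arrays centred on their medians (−0.58), after quantile normalization (−0.57) or with a trend on level removed (−0.58). Gpx4, which reduces lipid peroxides in membranes and guards against ferroptosis, stood at 14.23, 13.74 and 13.96 and stayed within 1.5-fold throughout, its difference from sham in AAC being −0.49. Gpx6 (4.71, 4.71 and 5.05), Gpx5 (3.22, 3.56 and 3.15) and the intestinal Gpx2 (3.53, 3.53 and 3.56) were not past 1.5-fold either, and the last 2 lay under the 25th percentile of every array.

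**Figure D2:**
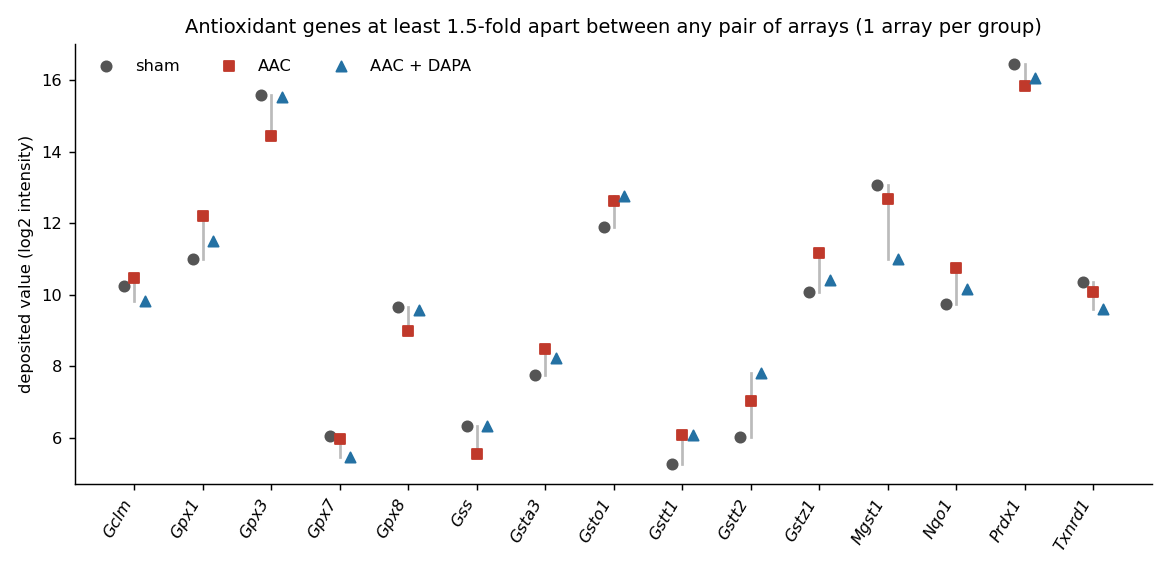
Deposited value (log2 intensity) of the 15 antioxidant genes at least 1.5-fold apart between any pair of arrays, with 1 point per array for sham, AAC and AAC + DAPA and a grey line over their range. Gpx3 and Gpx1 show the AAC array apart in opposite directions, Mgst1 shows the AAC + DAPA array apart at 10.99, and Gstt2 has 6.03, 7.02 and 7.80. Heights of different genes come from different probes and are not comparable.

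In the synthesis of glutathione, Gss, the enzyme of the last step, had 6.33 on the sham array, 5.55 on the AAC array and 6.33 again on the AAC + DAPA array. AAC was lower by 1.72-fold than either. Gclm, the modifier subunit of the rate-limiting ligase, stood at 10.25, 10.46 and 9.83, and its AAC + DAPA value was 1.55-fold under AAC, or −0.56 and short of the threshold with the arrays centred on their medians, and within 1.5-fold of sham. The catalytic subunit Gclc varied by 0.12 in all (7.70, 7.82 and 7.82). Gsr, which restores reduced glutathione, stood at 9.67, 9.67 and 9.44. The ligase subunits, the synthetase and the reductase thus did not share a direction.

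The 21 soluble GSTs gave 5 of the 7 genes higher in AAC than in sham, with 16 within 1.5-fold and 0 lower. Of all genes 4.88% were higher and 4.98% lower in this comparison, and 6.65% and 8.19% of those above the median level. Gstz1, the zeta class enzyme that also works in tyrosine breakdown as maleylacetoacetate isomerase, stood at 10.07, 11.17 and 10.42. The AAC array was 2.14-fold above sham and 1.68-fold above AAC + DAPA. Gstt2, of the theta class, stood at 6.03, 7.02 and 7.80, with AAC between the other arrays. It was the only member past 1.5-fold between each pair of arrays, with 1.99-fold for AAC over sham, 1.72-fold for AAC + DAPA over AAC and 3.41-fold for AAC + DAPA over sham. The last difference was matched or exceeded upward by 36 of all genes, Gstt2 included.

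Gstt1, of the same class, had 5.27 in sham and the identical value of 6.08 in AAC and AAC + DAPA, 1.75-fold higher. Gsto1, the omega class enzyme with glutaredoxin-like activity, stood at 11.88, 12.62 and 12.75, with sham below both other arrays by 1.67-fold and 1.83-fold. For Gstt1, Gstt2 and Gsto1 the sham array is thus the low one, and the difference from sham stands in AAC + DAPA against sham, without the AAC array. Both comparisons use the same sham array, so an error on it would enter both with the same sign. Gsta3, an alpha class enzyme, stood 1.66-fold over sham on the AAC array (7.76, 8.49 and 8.23) and within 1.5-fold in AAC + DAPA against either. Across all genes sham stood 1.5-fold or more beyond both companions for 3.17%, and the 3 genes here are 5.77% of the members. The share among genes above the median level, where most members lie, was not counted.

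The remaining soluble GSTs varied little. The 7 mu class genes, on chromosome 3, were all within 1.5-fold in the deposited values, while Gstm3 passed in AAC + DAPA against AAC with median centring (0.60) and quantile normalization (0.59). They had differences of AAC from sham between −0.38 (Gstm7) and 0.35 (Gstm4). Among them Gstm1 stood at 14.53, 14.55 and 14.55, Gstm2 at 12.10, 12.24 and 12.10, and Gstm6 at 6.49 on every array. Gstm5 stood at 9.79, 9.79 and 9.90, and Gstm3 at 5.59, 5.23 and 5.76. The pi class genes were as even, with Gstp1 at 10.75 on each array, Gstp2 at 10.23, 10.23 and 10.33, and Gstp3 between 3.16 and 3.29. Gsta4, which clears the lipid peroxidation product 4-hydroxynonenal, stood at 12.52, 12.89 and 12.52, Gsta2 at 6.73 on each array, and Gstk1, the mitochondrial and peroxisomal kappa enzyme, at 14.37, 14.62 and 14.23. Gstt3 varied from 4.50 to 4.65, Gstt4 from 3.21 to 3.31 and Gsto2 from 2.50 to 2.64, the last 2 under the 25th percentile of every array. Genes of the alpha, mu, pi and theta classes are close relatives, and whether their probes keep them apart was not tested.

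**Figure D3:**
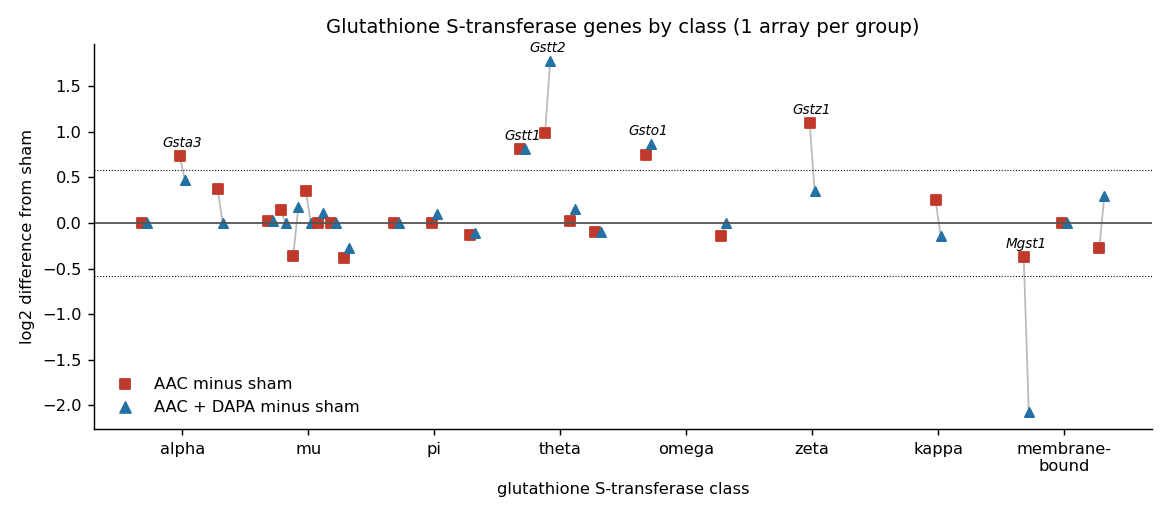
Log2 difference from sham of the 24 glutathione S-transferase genes by class, with squares for AAC, triangles for AAC + DAPA, a grey line joining the values of a gene and dotted lines at 1.5-fold. In these deposited values the mu and pi genes stay between the dotted lines, Gstt1, Gstt2 and Gsto1 lie above the upper line for both arrays, and Mgst1 reaches −2.07 in AAC + DAPA.

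Of the membrane-bound transferases, Mgst1 had the largest difference of all members. It encodes the microsomal enzyme of the endoplasmic reticulum and outer mitochondrial membrane, which also reduces lipid peroxides. Its values were 13.06, 12.69 and 10.99. Sham and AAC lay 0.37 apart, while the AAC + DAPA array was 3.25-fold under AAC and 4.20-fold under sham. Differences this far down were found for 59 and 18 of all genes, Mgst1 included. Mgst3 stood at 12.03, 11.75 and 12.33, its AAC + DAPA value 0.58 above AAC, just outside the threshold and past it under each other scaling (0.59 to 0.65), and Mgst2 was at 5.34 on every array. Mgst1 and Gstt2 were the members for which the AAC + DAPA array lay at least 1.5-fold beyond both others, 3.85% of the members against 2.12% of all genes. Again no share was counted among genes above the median level.

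Of the members past the threshold, Txnrd1, Gclm and Gpx7 also had their lowest value on the AAC + DAPA array. Txnrd1, the cytosolic selenoenzyme that reduces thioredoxin, stood at 10.37, 10.09 and 9.59, 1.72-fold under sham and 1.41-fold under AAC. Gclm and Txnrd1 are well-known NRF2 targets. The promoters of Gclm, Mgst1 and Txnrd1 are printed because each holds the core of the antioxidant response element, TGACNNNGC, which the Gpx7 window did not hold. The sequences run 5′ to 3′ along the gene, from 250 bases before to 50 after its start, as RefSeq gives them for GRCm38.p6. Capitals mark the matches, which read in the reverse direction here and begin at position −134 from the gene start in Gclm, −56 in Mgst1 and −92 in Txnrd1.

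Gclm promoter, chr3:122245307-122245606, + strand: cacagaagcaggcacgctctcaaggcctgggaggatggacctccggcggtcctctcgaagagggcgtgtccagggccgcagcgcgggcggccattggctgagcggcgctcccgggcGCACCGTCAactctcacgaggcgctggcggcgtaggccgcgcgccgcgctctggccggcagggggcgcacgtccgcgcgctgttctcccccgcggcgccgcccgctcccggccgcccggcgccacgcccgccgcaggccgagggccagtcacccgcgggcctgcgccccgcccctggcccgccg
Mgst1 promoter, chr6:138140277-138140576, + strand: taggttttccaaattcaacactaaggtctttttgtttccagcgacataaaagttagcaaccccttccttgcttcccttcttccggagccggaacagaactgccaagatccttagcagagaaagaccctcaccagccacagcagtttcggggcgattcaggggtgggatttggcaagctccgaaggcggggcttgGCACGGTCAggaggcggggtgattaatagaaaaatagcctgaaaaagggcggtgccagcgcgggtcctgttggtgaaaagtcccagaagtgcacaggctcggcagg
Txnrd1 promoter, chr10:82858956-82859255, + strand: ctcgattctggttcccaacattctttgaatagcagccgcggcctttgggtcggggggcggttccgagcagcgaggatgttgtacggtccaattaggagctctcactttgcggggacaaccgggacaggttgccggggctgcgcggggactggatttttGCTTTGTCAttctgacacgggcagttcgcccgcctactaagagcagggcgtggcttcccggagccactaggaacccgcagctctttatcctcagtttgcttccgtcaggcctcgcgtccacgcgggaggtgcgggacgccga

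The core was searched on both strands. It was present in 4071 of 32851 promoters of this length (12.4%) and in at least 1 promoter of 14.0% of 27025 genes. Of the 46 members with a promoter in the table, 9 held it (19.6%): Gclm, Gsta3, Gstm5, Gstm7, Mgst1, Prdx1, Sod1, Srxn1 and Txnrd1. Gclc, Gsr, Gsta4, Gstt2, Hmox1 and Sod3 had no promoter sequence to search. Nqo1 had one without a match, and bases outside this window were not searched for any gene. By outcome the core was held by 5 of 14 members past 1.5-fold in some comparison and 4 of 32 within it in all. These counts are small. Among the 5, Gclm fell short of the threshold with median centring (−0.56) and Prdx1 with quantile normalization (−0.57). The 5 did not share a direction, with Gsta3 above and Prdx1 below sham on the AAC array. Srxn1, the sulfiredoxin that repairs overoxidized peroxiredoxins, which holds a match too, stood at 5.45 on every array. A match is a run of letters and not a measured binding site.

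Prdx1, a cytosolic peroxiredoxin, was the 1 past the threshold of the 4 peroxiredoxins analysed here. It stood at 16.45, 15.83 and 16.06, with AAC 1.54-fold under sham, just inside the threshold and outside it after quantile normalization (−0.57). Prdx2, the peroxiredoxin abundant in red blood cells, stood at 15.37, 15.39 and 15.59. The mitochondrial Prdx3 stood at 15.34, 15.41 and 15.34, and the X-linked Prdx4 of the endoplasmic reticulum at 9.17, 8.94 and 8.94.

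The thioredoxin genes had no member past 1.5-fold in either comparison with the AAC array. Cytosolic Txn1 stood at 14.60, 14.09 and 14.22, with −0.51 for AAC against sham, and mitochondrial Txn2 at 11.68, 11.42 and 11.69. Of the reductases, mitochondrial Txnrd2 stood at 9.03, 9.36 and 9.06 and Txnrd3 at 7.68, 7.68 and 7.72.

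The superoxide dismutases and catalase were even as well. Mitochondrial Sod2 stood at 16.76, 16.62 and 16.78, cytosolic Sod1 at 14.37, 14.10 and 14.23, and secreted Sod3 at 6.49, 6.26 and 6.32. Catalase (Cat), the peroxisomal enzyme that splits hydrogen peroxide, stood at 16.19, 15.92 and 16.42, with 0.50 for AAC + DAPA against AAC. All 4 lay lower in AAC than on both other arrays, by 0.06 to 0.50, which is within 1.5-fold for each.

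Among NRF2 targets used as markers of the response, Nqo1 and Hmox1 are the best known. Nqo1, a quinone reductase, stood at 9.73, 10.74 and 10.16. AAC was 2.01-fold above sham, and AAC + DAPA was 0.58 under AAC, just outside the threshold. Hmox1, heme oxygenase, stood at 6.66, 7.03 and 6.69, highest in AAC but within 1.5-fold. Hmox1 is strongly expressed in macrophages that clear red blood cells, and the macrophage markers were highest on the same array, with their part not tested.

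**Figure D4:**
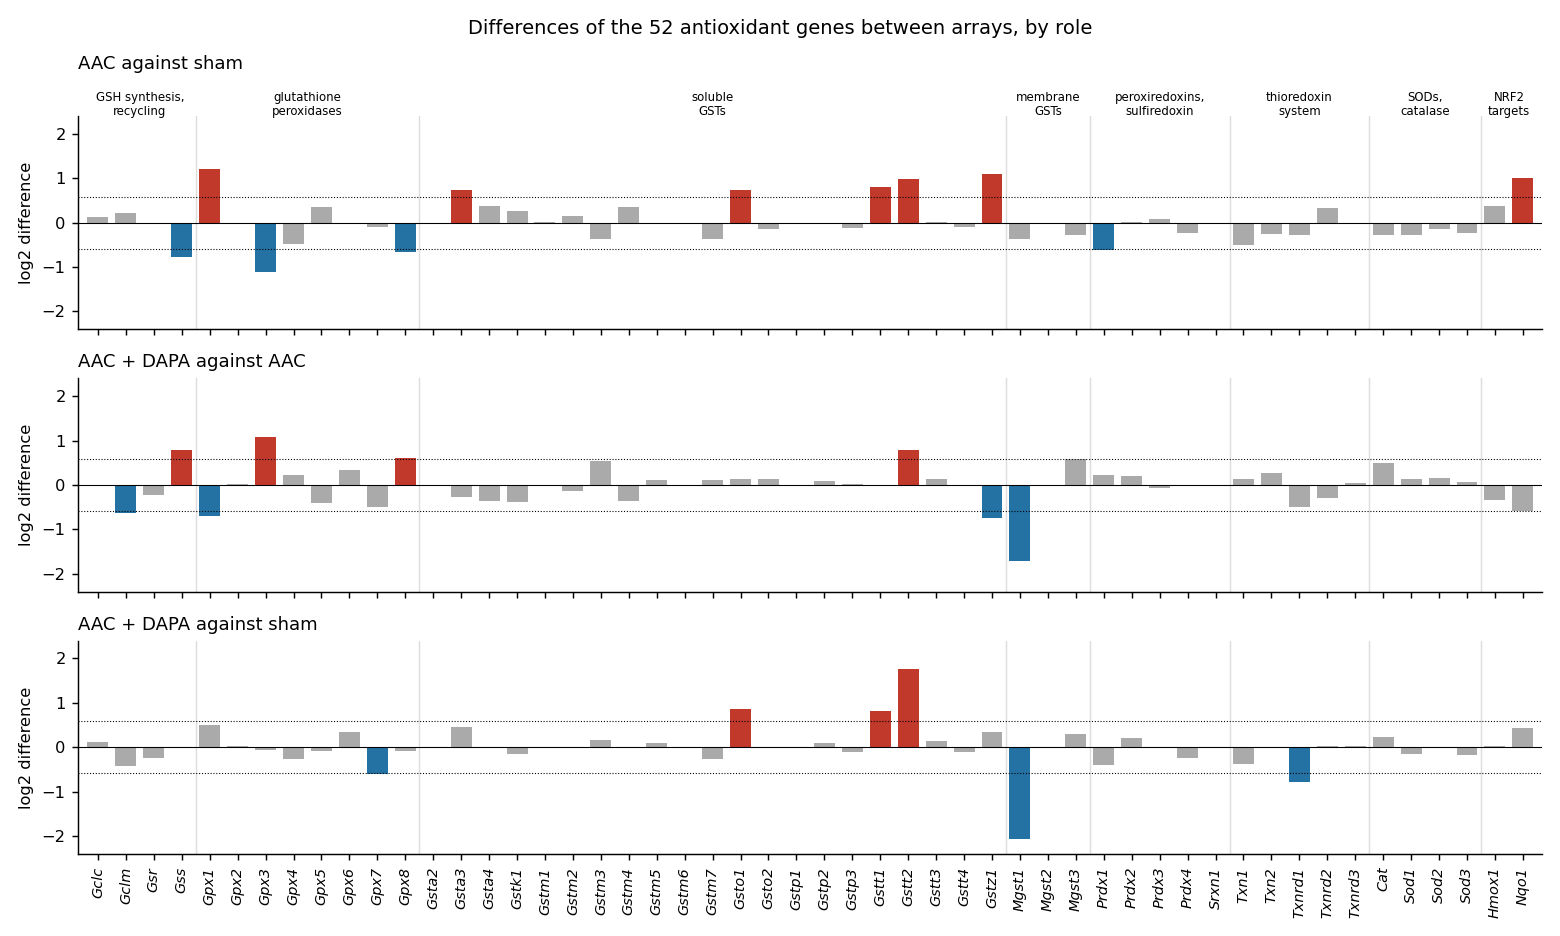
Log2 difference of each of the 52 antioxidant genes in AAC against sham, AAC + DAPA against AAC and AAC + DAPA against sham, grouped by role, with dotted lines at 1.5-fold, red bars at least 1.5-fold higher and blue bars at least 1.5-fold lower. The upper and middle panels share the AAC array, and the deepest bar is Mgst1 in the lower panel (−2.07).

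For 5 members the AAC array stood 1.5-fold or more beyond both companions, with Gpx1 and Gstz1 above and Gpx3, Gpx8 and Gss below. This is 9.62% of the members, against 4.19% of all genes. The share among genes above the median level, where most members lie, was not counted here either. An error on the AAC array enters both of its comparisons with opposite signs. Of the 52 members, 22 (42.3%) had the same value to 2 decimals on at least 1 pair of arrays and 5 on all 3 arrays, against 52.2% and 14.9% of all genes, so exact equality of arrays is common in the deposited values.

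Regulators of the pathway and lists of related genes were read as well. Of all genes, 4.88% were higher and 4.98% lower in AAC against sham. The shares were 4.16% and 4.18% in AAC + DAPA against AAC, and 3.22% and 3.38% in AAC + DAPA against sham. The lists are short, and none of their counts was tested against these shares. Nfe2l2, the gene of NRF2, stood at 6.56, 6.56 and 6.53, and its inhibitor Keap1 at 8.03, 8.02 and 8.16. Of 13 regulators, 1 was lower in AAC than in sham, the ubiquitin ligase subunit Rbx1 (−0.65), and 0 passed in AAC + DAPA against AAC. Of 18 other NRF2 target genes, 0 were higher in AAC and 2 were lower, the ferritin light chain Ftl1 (11.92, 11.00 and 10.81) and the reductase Ptgr1 (4.68, 4.08 and 3.54). In AAC + DAPA against AAC 1 was lower, the biliverdin reductase Blvrb, at 5.85 against 6.54. Against sham, AAC + DAPA had 1 higher target, the glutathione conjugate exporter Abcc1 (7.43, 7.90 and 8.44), and Ftl1 and Ptgr1 lower. The transporter Slc7a11, which imports cystine for glutathione, stood at 4.48, 4.29 and 4.48.

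Among 18 genes for the transport, breakdown and building blocks of glutathione, 3 lay above and 2 below sham on the AAC array, and 0 passed between AAC + DAPA and AAC. The higher ones were Cth, which makes cysteine from cystathionine (4.60, 5.92 and 6.47), the dipeptidase Dpep1 (9.75, 10.50 and 10.18) and the peptidase Lap3 (11.05, 11.75 and 11.55). The lower ones were Slc3a2, the heavy chain of the cystine transporter (12.32, 11.36 and 11.52), and Slc25a39, the carrier that brings glutathione into mitochondria (11.63, 11.00 and 11.26). Cth was the widest of these, with AAC + DAPA 3.66-fold over sham.

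Of 19 glutaredoxins, thioredoxin-like proteins and methionine sulfoxide reductases, 2 lay above and 2 below sham on the AAC array, and 3 lay above AAC on the AAC + DAPA array. Msra, which repairs oxidized methionine, stood at 12.16, 11.25 and 12.07, the AAC array being the low one as for Gpx3. Msrb1, a selenoenzyme of the same kind, stood at 13.55, 12.82 and 12.90. Txnip, the protein that binds and inhibits thioredoxin, stood at 15.45, 16.25 and 17.95, and the reductase Tmx1 was higher in AAC than in sham (13.41, 14.36 and 13.99). Glrx, the cytosolic glutaredoxin, stood 1.52-fold over AAC on the AAC + DAPA array (10.68, 10.49 and 11.09).

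Selenium supply bears on the members because Gpx1, Gpx3, Gpx4 and the thioredoxin reductases carry selenocysteine. Of 19 genes of selenoproteins and their synthesis, 2 were above sham on the AAC array, Selenow (11.81, 12.69 and 12.37) and Selenoh (5.35, 6.18 and 5.49), and 2 were lower, Pstk (9.49, 8.78 and 9.17) and Selenon (6.60, 5.97 and 5.58). In AAC + DAPA against AAC, 2 were lower, Selenoh and Trnau1ap (8.20, 7.92 and 6.82). The selenium carrier Selenop stood at 15.65, 15.61 and 15.91.

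Of 20 genes that produce superoxide or hydrogen peroxide, 1 was higher in AAC than in sham. It was Cybb, the catalytic subunit of the phagocyte NADPH oxidase, at 8.01, 9.93 and 9.12. Cybb is expressed in macrophages, whose markers were highest on the same array, and their part was not tested. In AAC + DAPA against AAC, Cybb and Rac2 (4.21, 4.55 and 3.81) were lower, and xanthine dehydrogenase Xdh was higher (9.50, 9.60 and 10.20). Against sham, AAC + DAPA had Cybb 2.16-fold and Xdh 1.62-fold higher, with the summed macrophage markers at 12.84 against 12.82. Of the 15 markers in that sum, 7 lay above and 8 below sham, with Ccr2 1.60-fold higher and C1qa 1.72-fold lower. Their part in this comparison was not tested either. Nox4, the oxidase known from cardiac muscle, stood at 3.63, 3.52 and 3.63, under the 25th percentile of each array.

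Of 13 genes of NADPH supply, 1 was lower on the AAC array than on the sham array. It was the malic enzyme Me1 (14.02, 13.12 and 15.03), which was also the 1 gene of the list above AAC on the AAC + DAPA array. The folate enzyme Aldh1l1 stood under AAC on the AAC + DAPA array (4.03, 4.56 and 3.72). Of 11 relatives of the GSTs, Clic5 (14.52, 15.21 and 15.21) was above sham on the AAC array, while Clic4 (14.19, 13.25 and 13.80) and Ptges2 (9.06, 8.44 and 8.90) were below it. Clic1 (7.88, 7.95 and 7.27) stood under AAC on the AAC + DAPA array.

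**Figure D5:**
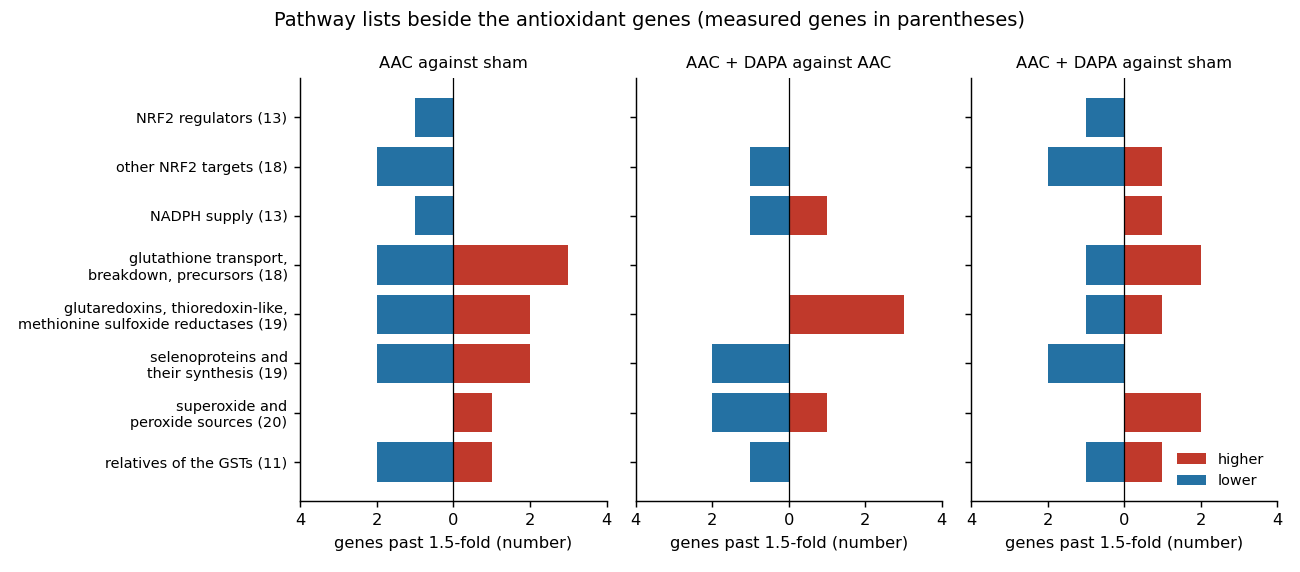
Number of genes at least 1.5-fold higher (red, to the right) or lower (blue, to the left) in each comparison, for 8 lists of pathway genes beside the antioxidant enzymes, with the number measured in parentheses. No list has more than 3 genes on one side. Over all genes the shares past 1.5-fold on one side run from 3.22% to 4.98%.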

How the data were processed

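Heart RNA of 1 sham, 1 AAC and 1 AAC + DAPA sample was measured on 1 Affymetrix array each. The authors deposited normalized log2 values, 1 per probe and array, to 2 decimals. Affymetrix Expression Console is the tool in the submitters' notes. The normalization method and genome build are not given in the sources used here. The paper names a human array, while the probes name mouse genes. Of 22206 probes, 19572 carry 1 gene symbol in the platform annotation, 0 carry several and 2634 carry none. Probes of a gene were averaged, which gave 19505 genes. The symbols of all 52 members were the same in RefSeq, and 3 further RefSeq symbols that fit the rule were not analysed here. Differences are between log2 values, and the paper's threshold of 1.5-fold was used without a filter on level. The number of arrays limits the precision. Members, gene lists and roles were chosen with earlier results of these data known. Named are all members, and from each list up to 4 genes per comparison past 1.5-fold with the largest difference. Others were named for their role, after their values were seen: Nfe2l2, Keap1, Slc7a11, Selenop, Nox4, Abcc1 and the cell type markers. The promoters printed were also chosen after the values were seen. The functions were tested on simulated arrays. Alternatives were median centring, quantile normalization, removal of a lowess trend on level, the probe with the highest mean, filters on level, thresholds of 1.3-fold and 2-fold, and leaving out the X and Y chromosomes. Python 3.11.15, numpy 2.4.6, pandas 2.3.3, statsmodels 0.14.6 and matplotlib 3.10.9 were used.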

Additional observations from a re-analysis of the deposited data

How the results depend on the processing

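The counts of members past 1.5-fold stayed within 1.5 times their main value under every alternative other than another threshold. Several of these alternatives could not have changed them. Each member has 1 probe, so the probe with the highest mean gives the same values. All 15 members past the threshold lie above the median level, so filters on level remove none of them. Leaving out the X and Y chromosomes removes Prdx4 alone, which stayed within 1.5-fold throughout. Only the other scalings could move a count. At 2-fold, 3 members were higher and 1 lower in AAC against sham, 1 higher and 1 lower in AAC + DAPA against AAC, and 1 higher and 1 lower in AAC + DAPA against sham. At 1.3-fold, 7 were higher and 7 lower in AAC against sham. AAC + DAPA against AAC had 7 higher and 9 lower, and AAC + DAPA against sham 6 higher and 6 lower. Shares over all genes are given at 1.5-fold only. The counts at 2-fold and 1.3-fold thus have no background beside them and do not show whether members exceed it there. None of the 25 differences past 1.5-fold changed sign. Those near the threshold crossed it. With arrays centred on the median, Gclm stood at −0.56 in AAC + DAPA against AAC and Gpx7 at −0.58 in AAC + DAPA against sham, while Gstm3 (0.60) and Mgst3 (0.65) passed in AAC + DAPA against AAC. With quantile normalization, Prdx1 stood at −0.57 in AAC against sham, Gpx8 at 0.58 in AAC + DAPA against AAC and Gpx7 at −0.57 in AAC + DAPA against sham, while Gstm3 (0.59) and Mgst3 (0.60) passed. With the lowess trend removed, Mgst3 passed (0.59) and Gpx7 did not (−0.58). Centring on the median changed the split over all genes in AAC + DAPA against AAC from 811 higher and 815 lower to 1087 and 624, and in AAC against sham from 952 and 972 to 779 and 1180. No paired analysis was possible because each group has 1 array. For the same reason no array could be left out and no error between animals can be given.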
